A study of Mus musculus with 6 samples.

Results

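The 9 genes described here carry cystine into the cell, make cysteine from methionine, and build, recycle and break down glutathione. They are Slc7a11, Cth, Cbs, Gclc, Gclm, Gss, Gsr, Chac1 and Ggct, among 20416 genes with a value on the array. They were found by name: a probe set was taken where the annotation of the array gave it exactly 1 gene symbol and that symbol was one of the 9. This gave 103 of the 241576 probe sets, between 4 for Chac1 and 17 for Cbs and for Gclc, and no probe set with several symbols named any of the 9.

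Transcripts were measured in C2C12, a mouse myoblast line whose cells fuse into myotubes when serum is lowered. Cells were grown with 10% fetal bovine serum, switched to 2% horse serum and used as differentiated myotubes on days 4 to 7. Cultures of the insulin group (n = 3 arrays) then had 100 nM insulin for 48 h in the low-serum fusion medium, which the labels describe as a way to induce insulin resistance, and control cultures (n = 3 arrays) had no treatment. The medium was renewed each 24 h, and the labels call the arrays of a group biological replicates of this 1 cell line. Every value rests on 25 ng of total RNA that was amplified before labelling, and is given as the authors' RMA value on a log2 scale, where a step of 1 is a doubling. The log base was inferred from the range of values, 3.15 to 14.6. The value of a gene on an array is the median over its probe sets.

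Cystine, the oxidized form of cysteine, enters cells through system xc-, an exchanger in which Slc7a11 encodes the transporting light chain and Slc3a2 the heavy chain that brings it to the membrane. Cysteine can also be made inside the cell by transsulfuration, in which cystathionine beta-synthase (Cbs) joins homocysteine to serine and cystathionine gamma-lyase (Cth) releases cysteine. Glutamate-cysteine ligase (Gclc and Gclm) and glutathione synthetase (Gss) then build glutathione, the main soluble thiol of muscle and most other cells, which peroxidases and transferases use and glutathione reductase (Gsr) regenerates.

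Insulin-treated myotubes had far more signal for the cystine transporter and for the last enzyme of transsulfuration, and modestly more for both subunits of glutamate-cysteine ligase, for glutathione reductase and for the glutathione-degrading enzyme Chac1. Slc7a11 was 11.6-fold and Cth 8.99-fold higher, against 1.52-fold for Gclm, 1.43-fold for Chac1, 1.39-fold for Gclc and 1.31-fold for Gsr. The size of the 2 large folds depends on the probe sets used: the brightest one alone gave 5.06-fold for Slc7a11 and 5.92-fold for Cth, so their order is not settled. Cbs, Gss and Ggct did not pass the test. Of the 9 genes 6 were called higher and 0 lower by limma at a Benjamini-Hochberg adjusted p under 0.05, where 9.56% of all 14291 tested genes were called higher and 6.35% lower. Among the 6, Slc7a11 had a control mean under the filter level for dim genes and was tested only through its insulin values. The median change of the 9 was 0.47 on the log2 scale, beside -0.0028 for all tested genes. In 6 of the 9 the insulin arrays lay wholly above the controls, as in 20.0% of tested genes, and in 1, Gss, wholly below them, as in 15.7%. In bulk samples such as these, a change in the number of cells of a type and a change in RNA per cell cannot be told apart.

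**Figure D1:**
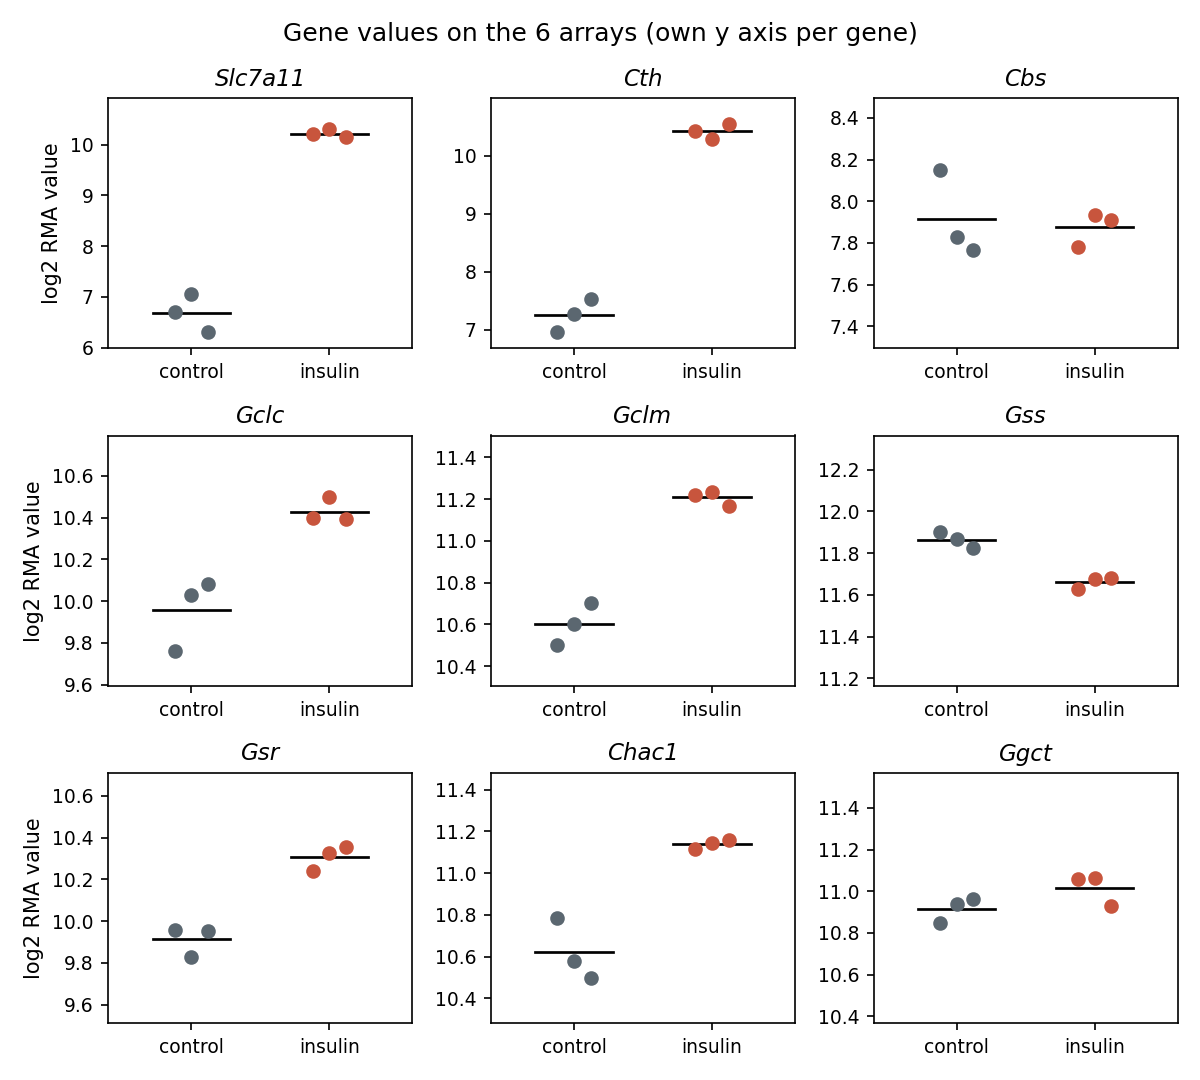
Gene value (median over probe sets, log2 scale) of each of the 9 genes on the 3 control and 3 insulin arrays, 1 point per array, with the line at the group mean and a separate axis for each gene. Slc7a11 and Cth rise from means of 6.69 and 7.26 to 10.22 and 10.42, the groups of Gclc, Gclm, Gsr and Chac1 stand apart by 0.39 to 0.61, and those of Cbs and Ggct overlap.

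Slc7a11 had the larger response of the uptake genes. Its log2 values were 6.69, 7.06 and 6.31 in controls 1, 2 and 3 and 10.21, 10.30 and 10.15 in insulin 1, 2 and 3. The groups did not overlap, and the gap between them was many times the spread within either group (6.69 ± 0.37 against 10.22 ± 0.08, mean ± SD). The change was 3.54 ± 0.17 on the log2 scale (SE), with a 95% interval of 3.15 to 3.92 and a limma adjusted p of 3.58e-05. All 13 Slc7a11 probe sets had higher values on every insulin array than on any control array, with changes from 1.99 to 4.59. Of these probe sets 10 passed the filter on dim values and 10 were called higher, beside 3.43% of all tested probe sets. The mean of 5 of them in the controls lay under the filter level of 7.36, so that they were tested only through their insulin values, and nothing is read from their count. The other 5 had control means at or above that level and were called higher as well. The control mean of the gene lay under 7.05, the level below which genes were left out as dim. Slc7a11 itself was thus tested only through its insulin values, which limits what its adjusted p and its call can show. No background level is known, so the fold is a ratio of RMA values. The brightest probe set gave a change of 2.34 and the brighter probe sets together 2.93.

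Slc3a2, the partner chain, moved little. Its log2 values were 12.60, 12.64 and 12.60 in the controls and 12.86, 12.81 and 12.86 in the insulin arrays. The groups did not overlap, and the change of 0.23 ± 0.06 (SE) passed with a limma adjusted p of 0.0350. This call was near the threshold: leaving out any 1 of the 6 arrays ended it (adjusted p 0.0577 to 0.112), as did 4 of the 10 other settings tried. The value of Slc7a11 minus that of Slc3a2 on the same array moved up by 3.30, from -5.93 ± 0.36 to -2.62 ± 0.10 (SD, n = 3). Probes of different genes bind with different strength, so only this shift and not the level of the difference is read. The two-sided exact permutation test gave p = 0.1, the smallest that 3 against 3 arrays allow, and 0.125 after Benjamini-Hochberg adjustment over the 5 pairs compared in this way.

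The enzymes of transsulfuration parted. Cth, which cleaves cystathionine to cysteine, had log2 values of 6.96, 7.27 and 7.53 in the controls and 10.43, 10.29 and 10.55 in the insulin arrays. The groups stood apart without overlap, by 3.17 ± 0.14 on the log2 scale (SE, 95% interval 2.85 to 3.49, limma adjusted p = 2.46e-05). Cbs, which makes the cystathionine, had 8.15, 7.83 and 7.76 in the controls and 7.78, 7.93 and 7.91 in the insulin arrays. These ranges overlap, and the change of -0.039 ± 0.108 did not pass (adjusted p = 0.847). Its 95% interval, -0.29 to 0.21, leaves room for a small change either way, and its sign turned when control 1 was left out (0.079). Cth minus Cbs on the same array moved from -0.66 ± 0.49 to 2.55 ± 0.17 (SD), a shift of 3.21 with an exact permutation p of 0.1 (0.125 adjusted).

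Of the 12 Cth probe sets, 11 were higher on every insulin array than on any control array, with changes of 2.43 to 3.94. The remaining probe set changed by 0.19 and was not called (limma adjusted p = 0.424). The brightest probe set of Cth changed by 2.57, and the median of its brighter probe sets by 3.33. Of the 5 tested Cth probe sets with a control mean at or above 7.36, 4 were called higher, beside 3.43% of all tested probe sets. Among all probe sets on the array, dim ones included, 13.4% had the insulin arrays wholly above the controls. For Cbs, 9 of 17 probe sets went up and 8 down, between -0.58 and 0.26, and 0 of the 11 tested were called. The probe sets of Cbs thus show no common direction, while all 12 of Cth went up, the remaining one only slightly.

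**Figure D2:**
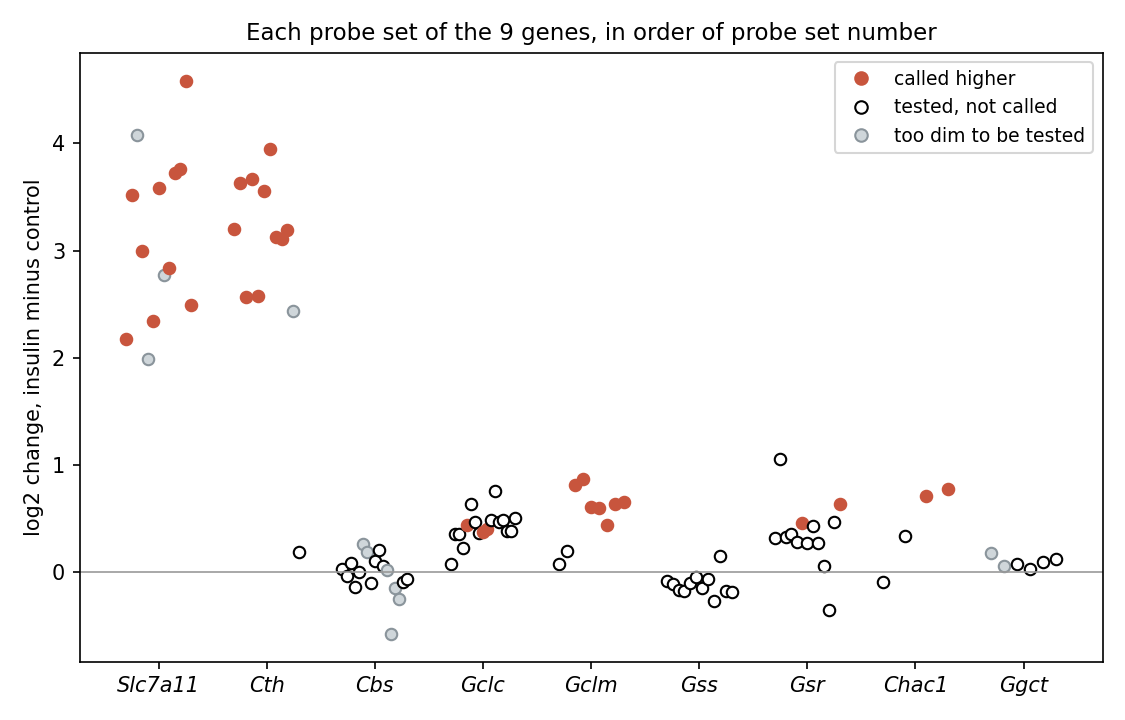
Change of every probe set of the 9 genes (insulin mean minus control mean, log2 scale), 1 point per probe set, with red points for probe sets called higher by limma, white for tested but not called and grey for too dim to be tested. The 13 points of Slc7a11 and 11 of 12 of Cth lie at 1.99 or more, those of Cbs scatter around 0 and 11 of 12 of Gss lie below 0.

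Glutamate-cysteine ligase, which joins glutamate to cysteine, is the rate-limiting step of glutathione synthesis, with Gclc as its catalytic and Gclm as its modifier subunit. Gclc had log2 values of 9.76, 10.03 and 10.08 in the controls and 10.40, 10.50 and 10.39 in the insulin arrays. Gclm had 10.50, 10.60 and 10.70 in the controls and 11.22, 11.23 and 11.17 in the insulin arrays. In both genes the lowest insulin array was above the highest control. Gclc rose by 0.47 ± 0.09 on the log2 scale (SE, 95% interval 0.25 to 0.69, limma adjusted p = 0.0143) and Gclm by 0.61 ± 0.07 (0.44 to 0.77, adjusted p = 0.00197). The Gclc call was lost without insulin 2 (adjusted p = 0.0612) or insulin 3 (0.050).

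All 17 probe sets of Gclc and all 9 of Gclm went up, by 0.073 to 0.75 and by 0.071 to 0.86. Tested singly, 3 of the 17 of Gclc and 7 of the 9 of Gclm were called higher, beside 3.43% of all tested probe sets. The difference between the subunits, Gclc minus Gclm, went from -0.64 ± 0.09 to -0.78 ± 0.04 (SD), and its shift of -0.14 had an exact permutation p of 0.2. With 3 against 3 arrays this test cannot go below 0.1, so it cannot decide whether the subunits responded differently.

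Glutathione synthetase adds glycine in the closing step. Gss had log2 values of 11.90, 11.87 and 11.83 in the controls and 11.63, 11.68 and 11.68 in the insulin arrays, so that every insulin array was lower than every control. The change of -0.20 ± 0.06 (SE, 95% interval -0.34 to -0.06) missed the threshold (limma adjusted p = 0.0606). It passed with arrays centred on their medians (0.0456), a stricter filter that kept genes from the 50th percentile (0.0338), a variance trend with intensity (0.0238) or array quality weights (0.00875). Of the 12 Gss probe sets 11 went down, and 0 were called. Set against the catalytic subunit of the ligase, Gss minus Gclc went from 1.91 ± 0.21 to 1.23 ± 0.06 (SD), a shift of -0.67 (exact permutation p = 0.1, 0.125 adjusted).

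Glutathione reductase returns oxidized glutathione to its reduced form at the expense of NADPH. Gsr had log2 values of 9.96, 9.83 and 9.95 in the controls and 10.24, 10.32 and 10.35 in the insulin arrays. The groups were apart, and Gsr rose by 0.39 ± 0.07 on the log2 scale (SE, 95% interval 0.23 to 0.55, limma adjusted p = 0.00901). Of its 13 probe sets 12 went up, while 1 went down by 0.36. In 11 the insulin arrays lay wholly above the controls, beside 13.4% of all probe sets, dim ones included. Tested singly, 2 of the 13 were called higher, beside 3.43% of all tested probe sets. The call was lost with the brightest probe set alone, although that probe set changed by 0.47 (adjusted p = 0.0594).

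Chac1 encodes an enzyme that cleaves glutathione to cysteinylglycine and pyroglutamate, and Ggct a cyclotransferase that acts on other gamma-glutamyl compounds. Chac1 had log2 values of 10.78, 10.58 and 10.50 in the controls and 11.11, 11.15 and 11.16 in the insulin arrays, with no overlap. It rose by 0.52 ± 0.08 on the log2 scale (SE, 95% interval 0.33 to 0.71, limma adjusted p = 0.00600). Its 4 probe sets differed in size: the 2 brighter ones rose by 0.71 and 0.77 and were called, and the others changed by 0.33 and -0.096 and were not. Ggct had 10.85, 10.94 and 10.96 in the controls and 11.06, 11.06 and 10.93 in the insulin arrays. Insulin 3 lay among the controls, and the change of 0.10 ± 0.07 (95% interval -0.06 to 0.26) did not pass (adjusted p = 0.393). Chac1 minus Ggct went from -0.30 ± 0.21 to 0.12 ± 0.10 (SD), a shift of 0.42 (exact permutation p = 0.1, 0.125 adjusted).

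**Figure D3:**
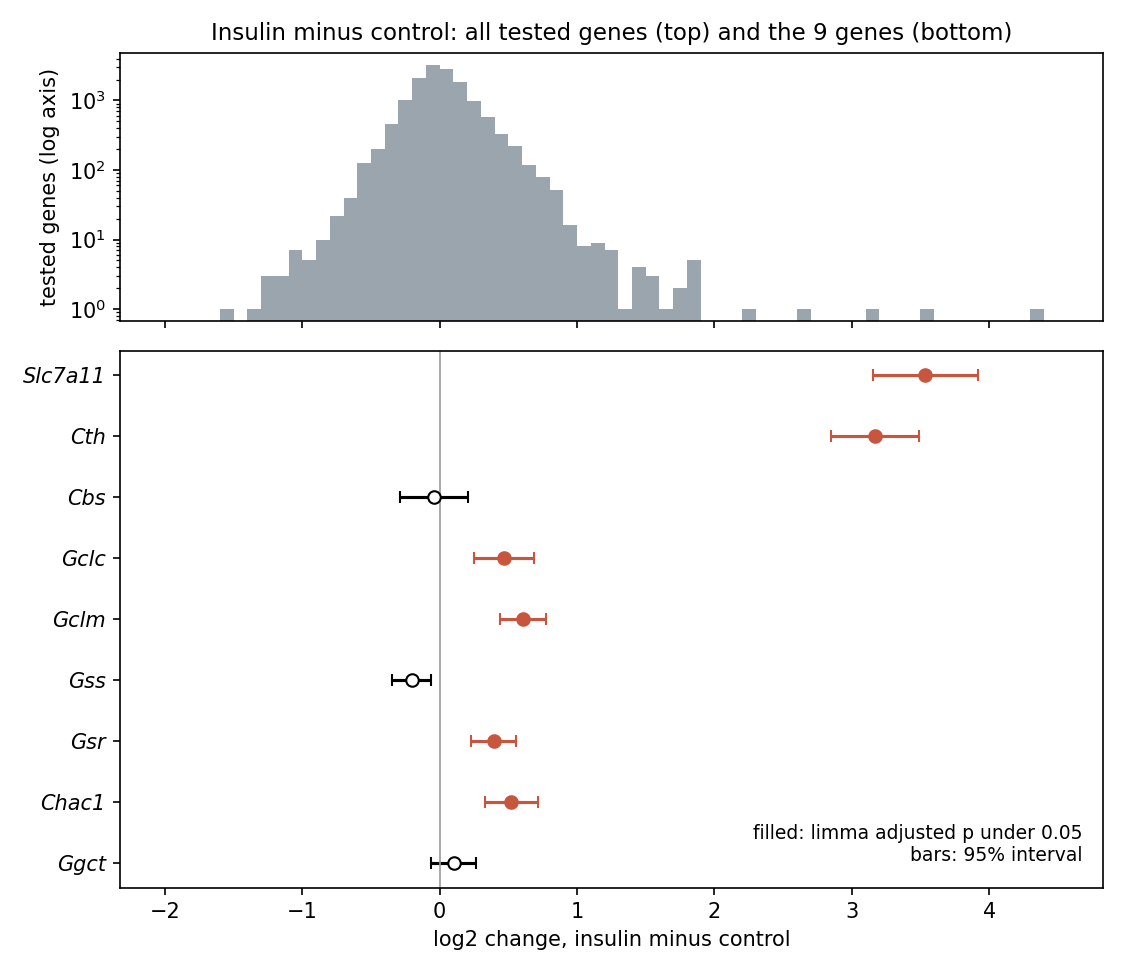
Log2 change (insulin minus control) of all 14291 tested genes as a histogram with a log axis (top) and of the 9 genes (bottom), with each point at the limma estimate, filled where called, and the bar at its 95% interval. The intervals of Slc7a11 (3.15 to 3.92) and Cth (2.85 to 3.49) lie far above those of the other genes, and those of Cbs and Ggct include 0.

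Over all 9 genes, 91 of the 103 probe sets passed the filter, 11 of them (5 of Slc7a11 and 6 of Cth) only through their insulin values. Of the 91, 34 were called higher and 0 lower, beside 3.43% of all tested probe sets called higher. Those 34 include all 11, from whose count nothing is read, and 23 of the 80 with control means at or above the filter level. Of the 103, 82 went up and 56 had the insulin arrays wholly above the controls, beside 13.4% of all probe sets, dim ones included. The 56 include 13 of Slc7a11 and 11 of Cth. The count of 34 fell to 21 without control 2, to 16 without either insulin 1 or insulin 2, to 15 without insulin 3, and to 19 with the replicate number as a block. It rose to 40 with a variance trend with intensity and to 50 with array quality weights. The count of genes called higher was steadier, at 5 without insulin 2 or insulin 3 and 6 when any other array was left out. The control arrays varied more than the insulin arrays in 8 of the 9 genes (88.9%), as they did in 63% of tested genes. The median SD of the 9 was 0.15 in controls and 0.060 with insulin, beside 0.11 and 0.078 for all tested genes.

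Promoter sequence is shown for the responding genes for which the RefSeq table (build GRCm38.p6) gave a window, Slc7a11, Chac1 and Gclm, and for Ggct as one that did not pass. Such windows were found for 6 of the 9 genes, without Cth, Gclc and Gsr. Searched for were the letters TGATGNAA, the core of the amino acid response element that ATF4 dimers bind, and TGACNNNGC, the core of the antioxidant response element bound by NRF2, on both strands of the 250 bases before the start. Slc7a11 is at chr3:50443614-50443863 on the minus strand, Chac1 at chr2:119350992-119351241 on the plus strand, Gclm at chr3:122245307-122245486 on the plus strand and Ggct at chr6:54992961-54993117 on the minus strand, each printed along the strand of its gene with matches in capitals. For Gclm and Ggct the bases next to the start are left out because the annotated span of the gene begins before them, which leaves 180 and 157 bases. The whole Slc7a11 window lies inside that gene's annotated span, which begins further upstream.
Slc7a11: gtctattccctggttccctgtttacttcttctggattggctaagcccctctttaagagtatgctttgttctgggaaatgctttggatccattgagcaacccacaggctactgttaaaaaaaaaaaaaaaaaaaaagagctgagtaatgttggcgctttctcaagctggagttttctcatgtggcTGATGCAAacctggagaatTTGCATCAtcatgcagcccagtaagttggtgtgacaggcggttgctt
Chac1: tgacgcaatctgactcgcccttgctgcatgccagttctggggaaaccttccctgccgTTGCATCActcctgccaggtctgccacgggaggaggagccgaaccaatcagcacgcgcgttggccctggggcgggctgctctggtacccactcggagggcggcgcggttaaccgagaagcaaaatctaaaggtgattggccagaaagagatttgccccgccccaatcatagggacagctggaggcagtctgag
Gclm: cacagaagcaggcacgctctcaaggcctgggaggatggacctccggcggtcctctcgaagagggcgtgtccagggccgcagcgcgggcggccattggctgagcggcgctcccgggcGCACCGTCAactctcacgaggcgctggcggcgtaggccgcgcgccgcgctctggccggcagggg
Ggct: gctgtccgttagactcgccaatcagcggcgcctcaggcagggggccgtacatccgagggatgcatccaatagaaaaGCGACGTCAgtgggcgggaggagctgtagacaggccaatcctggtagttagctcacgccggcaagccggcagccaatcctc

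Slc7a11 held the amino acid response core at 2 places that did not overlap, from -66 to -59 on its own strand and from -47 to -40 on the opposite strand, counted back from the start. Chac1 held it once, from -193 to -186 on the opposite strand. The antioxidant core stood once in Gclm, from -134 to -126, and once in Ggct, from -174 to -166, both on the opposite strand. Neither core was found in the windows of Cbs and Gss. Of all 32851 windows of this length in the table, 3.45% held the first core and 10.2% the second. A match describes letters in a window and does not show that a factor was bound there.

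The genes whose values followed Slc7a11 most closely over the 6 arrays were Acsbg1, Cdsn, Terf1, Gm6596 and Pgam1, with Pearson r from 0.997 to 0.999. All 6 arrays share 1 contrast, so any gene with a large gap between groups and small spread has a high r, and no p is given. Acsbg1, an acyl-CoA synthetase, rose by 1.16 on the log2 scale and Cdsn, which encodes corneodesmosin, by 1.11. Terf1, a telomere-binding protein gene, rose by 0.55, Gm6596, which has a single probe set, by 1.86, and Pgam1, a glycolytic mutase, by 0.43. With the brightest probe set alone, Acsbg1 (0.25, limma adjusted p = 0.107), Cdsn (0.12, 0.344) and Pgam1 (0.26, 0.0604) did not pass.

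Around the 9 genes, 9 lists of 132 genes were followed, of which 129 were on the array and 112 were tested. Of these 20 were called higher, 5 lower and 87 did not pass, with a median change of 0.062 on the log2 scale, beside the 9.56% higher and 6.35% lower of all tested genes. From each list the 3 genes with the smallest unadjusted p are named.

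In the supply of cysteine, 2 of 4 cystine and cysteine transport genes were called higher and 0 lower (median 0.082). Slc1a4, a carrier of small neutral amino acids, went from 10.30 ± 0.09 to 11.14 ± 0.06 on the log2 scale (SD) and rose by 0.84 ± 0.07 (SE, limma adjusted p = 0.000599). The other was Slc3a2, and Ctns, the lysosomal cystine exporter, changed by -0.12 (adjusted p = 0.456). Of 15 methionine cycle and salvage genes 2 were called higher and 13 did not pass (median 0.085). These were Mtap, of methylthioadenosine salvage, at 0.33 (adjusted p = 0.0196), and Mtrr, which keeps methionine synthase active, at 0.31 (0.0149), with Mat2b next at -0.21 (0.0683). Neither passed without control 2 (0.0774 and 0.0594), insulin 2 (0.0810 and 0.0674) or insulin 3 (0.0771 and 0.0610), or with the brightest probe set (0.0641 and 0.782), and Mtrr also not with its brighter probe sets (0.186).

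Other uses of cysteine gave 2 genes higher, 1 lower and 7 not passed of 10 (median 0.044). Mpst and Ethe1, sulfurtransferase and persulfide dioxygenase genes of sulfide metabolism, changed by 0.37 and 0.26 on the log2 scale (limma adjusted p = 0.0328 and 0.0295), and Suox, sulfite oxidase, by -0.29 (0.0333). These calls were near the threshold: that of Ethe1 was lost without any 1 of the 6 (0.0529 to 0.0959). That of Mpst was lost without control 2 (0.108), control 3 (0.0665), insulin 1 (0.112) or insulin 3 (0.1205). That of Suox was lost without control 1 (0.0548), control 2 (0.0824), insulin 1 (0.102), insulin 2 (0.1035) or insulin 3 (0.0963).

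In the gamma-glutamyl cycle and glutathione breakdown, 0 of 10 tested genes were called higher and 2 lower (median -0.059). Oplah, which opens pyroglutamate back to glutamate, went from 9.40 ± 0.07 to 8.88 ± 0.08 (SD) and fell by 0.52 on the log2 scale (SE 0.07, limma adjusted p = 0.00360). Dpep1, a membrane dipeptidase that splits cysteinylglycine, changed by -0.31 (0.0355) and Ggt1, gamma-glutamyltransferase, by -0.13 (0.347). The Dpep1 call was lost without control 2 (0.1206), control 3 (0.0698), insulin 1 (0.101), insulin 2 (0.1096) or insulin 3 (0.106), and with its brighter probe sets (0.0516). So within glutathione breakdown, Chac1 was higher and Oplah lower after insulin.

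For genes that use glutathione, the counts stand beside the 9.56% higher and 6.35% lower of all tested genes. Of 15 peroxidase, glutaredoxin and glyoxalase genes 0 were called higher and 1 lower (median -0.020). That was Gpx3, the secreted peroxidase, whose log2 values of 9.98, 10.04 and 10.13 in the controls lay above the 9.14, 9.48 and 9.34 of the insulin arrays (limma adjusted p = 0.00269). Its change of -0.73 on the log2 scale was -0.36 with its brighter probe sets alone (adjusted p = 0.0242), where that of Oplah was -0.41. With the brightest probe set the change of Gpx3 was -0.72 (0.00481) and with the mean of its probe sets -0.63 (0.000295). Gpx8 and Esd, next by p, changed by -0.12 (0.235) and 0.13 (0.258). Of 19 glutathione transferases 2 were called higher and 17 did not pass (median 0.040). Gsta3 had 9.82, 9.91 and 10.12 in the controls and 11.84, 11.76 and 11.68 in the insulin arrays, a rise of 1.81 ± 0.09 on the log2 scale (SE, adjusted p = 4.29e-05). The rise of Gsta3 was smaller with its brightest probe set (1.33), its brighter probe sets (1.42) or the mean of its probe sets (1.48), and passed with each. Gsta4, which acts on products of lipid peroxidation, rose by 0.58 ± 0.07 (0.00251), and Mgst2 changed by -0.22 (0.0855). Members of the Gsta family are alike in sequence, and probes that bind more than 1 of them were not told apart beyond the annotation.

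Of 7 glutathione transport genes 2 were called higher (median 0.20). Abcc4, an exporter of organic anions, rose by 1.11 ± 0.08 on the log2 scale (SE, limma adjusted p = 0.000315), with control values of 8.88, 8.99 and 9.15 and insulin values of 10.06, 10.12 and 10.17. Abcc1, an exporter of glutathione conjugates, changed by 0.38 (0.0259), and Slc25a39, the mitochondrial glutathione carrier, by 0.36 (0.0594). The Abcc1 call was lost without control 1 (0.0587), control 2 (0.0800), insulin 2 (0.0963) or insulin 3 (0.0982), while Slc25a39 passed under 6 of 16 alternatives: without insulin 1 (0.0403), with the filter at the 50th percentile (0.0392), the intensity trend (0.0271), array quality weights (0.0165), the mean of its probe sets (0.00622) or its brighter ones (0.00554).

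The thioredoxin system, which reduces disulfides beside glutathione, gave 2 of 11 genes higher and 0 lower (median 0.16). Srxn1, which repairs overoxidized peroxiredoxins, rose by 0.74 ± 0.10 on the log2 scale (SE, limma adjusted p = 0.00279), and its insulin arrays (11.37, 11.24 and 11.20) lay above its controls (10.68, 10.57 and 10.35). Txnrd1, cytosolic thioredoxin reductase, changed by 0.30 (0.0185) and Prdx5 by -0.21 (0.0511). The Txnrd1 call was lost without control 2 (0.0559), insulin 1 (0.0556) or insulin 2 (0.0799).

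Of 21 tested genes of transcription factors and eIF2 kinase signalling known for this pathway, 8 were called higher, 1 lower and 12 did not pass (median 0.16). Trib3, a pseudokinase gene of the stress response, had 8.86, 8.95 and 8.89 in the controls and 10.67, 10.73 and 10.72 in the insulin arrays, a rise of 1.81 on the log2 scale (limma adjusted p = 8.75e-06), or 2.50 with its brightest probe set. Ddit3, the gene of the transcription factor CHOP, rose by 1.83 (0.000110) and Sesn2, sestrin 2, by 1.03 ± 0.07 (SE, 0.000130). Chosen after their values were seen, the genes of the factors whose cores were searched are added: Atf4 went from 12.88 ± 0.11 to 13.23 ± 0.05 (SD), a change of 0.35 (adjusted p = 0.0195), and Nfe2l2, encoding NRF2, changed by 0.036 ± 0.065 (0.760). Nfe2l2 had the opposite sign without control 2 (-9e-04) and with the mean of its probe sets (-0.015). Bach1, a repressor at antioxidant elements and the 1 gene called lower, changed by -0.27 (0.0216). The Atf4 and Bach1 calls were lost without control 2 (0.0640 and 0.0707), insulin 1 (0.0743 and 0.0749), insulin 2 (0.0657 and 0.0890) or insulin 3 (0.0596 and 0.0522).

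**Figure D4:**
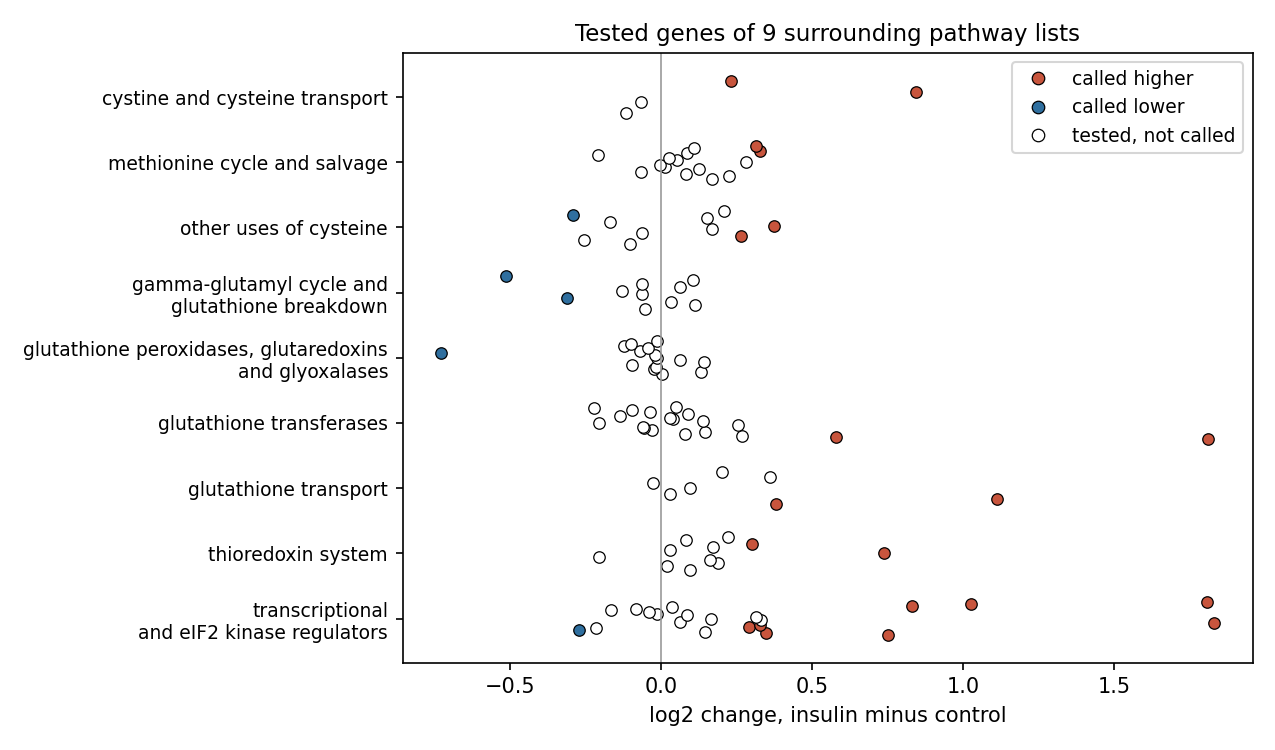
Log2 change (insulin minus control) of the 112 tested genes in 9 surrounding lists, 1 point per gene, with red for genes called higher, blue for called lower and white for tested but not called. Most points lie near 0, and the farthest are Ddit3 (1.83), Gsta3 (1.81) and Trib3 (1.81) on the right and Gpx3 (-0.73) on the left. With the brightest probe set alone these changes were 1.98, 1.33, 2.50 and -0.72, and that of Gpx3 was -0.36 with its brighter probe sets.

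The cell type was checked on marker genes. All 8 myotube markers lay at or above the 82.98 percentile of gene values. After insulin 3 of them (Myog, Ckm and Actn2) were called lower, where 6.35% of all tested genes were. The mean of the 8 per array was 12.90 to 13.07 in the controls and 12.68 to 12.72 with insulin. Of 5 tested myoblast or satellite cell markers, a list that includes proliferation genes, 4 were called higher (Myf5, Mki67, Top2a and Cdk1), where 9.56% of all tested genes were. The satellite cell marker Pax7 changed by -0.032 (limma adjusted p = 0.9145), and Pax3 was too dim to be tested. Array means over the 6 listed were 9.47 to 9.62 in the controls and 9.83 to 9.93 with insulin. These differences run along with those of the 9 genes, and their part in the results was not tested. Of 4 fibroblast markers 1, Dcn, was called lower (array means 9.61 to 9.80 and 9.41 to 9.57). Array means of adipocyte (6.47 to 6.85 and 6.41 to 6.67), osteoblast (6.83 to 6.97 and 6.98 to 7.03), macrophage (6.54 to 6.55 and 6.39 to 6.54) and endothelial (6.46 to 6.79 and 6.66 to 6.75) markers lay under the filter level of 7.05 in both groups. Single markers above that level in both groups were Plin1 (7.88 and 7.85), Cidec (7.82 and 7.74), Sp7 (7.22 and 7.16), Cd68 (7.87 and 7.84) and Pecam1 (7.16 and 7.21). None of these tested genes was called. On the leading principal component, with 58.6% of the variance, the groups were apart, and array medians lay within 8.79 to 8.82.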

How the data were processed

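The deposited log2 values, 1 for each probe set on each array, were made by the authors with RMA per the submitters' processing notes, which give no version. RMA quantile-normalizes, so changes are relative to other transcripts on the array. No detection calls or scan dates were used here. Gene symbols of probe sets are those of GEO's platform annotation (1 symbol for 212097, several for 4475, none for 25004), and 4 list genes were found under an older symbol in RefSeq names of GRCm38.p6.

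A gene's value was the median of its probe sets with exactly 1 symbol. Genes with a 6-array mean under the 30th percentile (7.05) were left out, leaving 14291, and the groups were compared by limma 3.58.1 in R 4.3.3 (lmFit, eBayes, two-sided p), adjusted by Benjamini-Hochberg over all tested genes at 0.05. Probe sets (169103 tested, level 7.36) were fitted alike. The gene fit was also run on simulated data with planted changes larger than those of Gclc, Gclm, Gsr and Chac1. That run therefore says nothing on calls of their size. SEs and intervals come from limma, and SDs are over 3 arrays. As separate cultures are not described further than as biological replicates, p-values measure the spread between these arrays, whose number limits the precision.

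Named were all 9 members, the 3 genes of each list with the smallest unadjusted p, the 5 genes most like Slc7a11 and the genes of the pairs. The members, lists and tests were chosen with earlier results of these data known, and the lists come from general knowledge. Alternatives were a replicate block, other normalizations, filters, variance models and gene values, and leaving out each array.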

Additional observations from a re-analysis of the deposited data

How the results depend on the processing

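The count of genes called higher among the 9 lay between 5 and 6 under every alternative. The count over all genes, 2274, was 5007 with array quality weights, 3436 with gene values averaged over probe sets and 1046 to 2446 with 1 array left out, among them 1237 (control 2), 1267 (insulin 1), 1046 (insulin 2) and 1114 (insulin 3). Probe sets of the 9 genes called higher, 34, ranged from 15 to 33 with 1 array left out, and were 40 with the intensity trend and 50 with array quality weights.

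The replicate numbers did not pair the arrays: deviations of same-numbered arrays correlated at 0.025, 0.19 and -4e-04, and not every array correlated best with its own number. With the replicate block 1970 genes, 6 of the 9 genes and 19 of their probe sets were called, and the calls of Slc3a2 (0.0704), Ethe1 (0.0556), Suox (0.0589) and Dpep1 (0.0536) were lost.

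Cbs, which never passed, changed sign with array quality weights (0.039), its brightest probe set (0.20), without control 1 (0.079) and without insulin 1 (0.0076), within -0.11 to 0.079 over single left-out arrays. Nfe2l2 did so with the mean of its probe sets (-0.015) and without control 2 (-9e-04), within -9e-04 to 0.059. Slc7a11 and Cth passed under all 16 alternatives, with changes of 2.34 to 3.72 and 2.57 to 3.33. Gclm and Chac1 also passed under all 16, with changes of 0.43 to 0.66 and 0.43 to 0.77. Without a filter Slc3a2 (0.0662), Ethe1 (0.0565), Mpst (0.0594), Suox (0.0617) and Dpep1 (0.0646) lost their calls, and with the brightest probe set Slc3a2 (0.119), Ethe1 (0.0634), Mpst (0.0743), Dpep1 (0.0604), Abcc1 (0.0501), Txnrd1 (0.0591) and Bach1 (0.250) did (limma adjusted p). The brightest probe set also ended the calls of Gsr (0.0594), Mtrr (0.782), Mtap (0.0641), Acsbg1 (0.107), Cdsn (0.344) and Pgam1 (0.0604). With the brighter probe sets Slc3a2 (0.0533), Mtrr (0.186), Dpep1 (0.0516) and Cdsn (0.294) lost theirs, while Ctns (0.0489) and Slc25a39 (0.00554) passed. The cause of these differences was not tested. With no background level known, dim control values of Slc7a11 and Cth limit how exactly their folds can be read.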
